A study of Mus musculus with 8 samples.

Results

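The 9 genes described here are the core of the transforming growth factor beta (TGF-beta) pathway, namely the ligands Tgfb1, Tgfb2 and Tgfb3, the receptors Tgfbr1, Tgfbr2 and Tgfbr3, the signal transducer Smad3, and the pathway inhibitors Smad7 and Skil, which are also induced directly by the pathway. They were taken by gene symbol, with earlier results of these data known, and all 9 were listed among the 18645 genes measured in hepatic stellate cells (HSCs) and the 17408 genes measured in bone marrow-derived macrophages (BMDMs). HSCs are the collagen-producing cells of the liver, and primary HSCs of C57BL/6 mice, labelled as activated, were exposed to vehicle or to 0.03 µM auranofin, an oral gold compound, for 12 h. They had been separated from the other nonparenchymal liver cells by density gradient only, and neither the age of these mice nor the number pooled is given in the sources used here. BMDMs, macrophages grown with M-CSF from the marrow of 8-week-old male C57BL/6 mice, all received LPS at 100 ng/ml and ATP at 1 mM. Vehicle or auranofin was present for 1 h, at 0.1 µM by the sample labels and at 0.3 µM by the figure legend of the study. Each of the 4 groups had 2 RNA sequencing libraries. Nothing in the labels says that the libraries of a group came from separate cultures or mice, so p-values measure only the spread between these libraries, which may be technical. With 2 libraries against 2, an exact two-sided permutation test cannot give a p under 0.333, and none was used for a single gene.

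TGF-beta ligands are secreted in a latent complex and must be freed, for instance by integrins or thrombospondin, before they bind. The active dimer assembles the type II receptor (Tgfbr2) with the type I receptor (Tgfbr1), and the type I kinase phosphorylates Smad2 and Smad3, which enter the nucleus with Smad4. Tgfbr3, betaglycan, is a coreceptor that presents ligand and binds Tgfb2 in particular. Smad7 blocks and degrades the type I receptor, and Skil (SnoN) holds SMAD complexes in a repressed state. In the injured liver this pathway is a main driver of HSC activation and of matrix production, and macrophages are one of the sources of Tgfb1.

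Levels are given in FPKM, the fragments of a gene per length of transcript and per size of the library, so that levels of different genes can be set side by side per length. Fold changes are differences of log2(FPKM + 1) between auranofin and control, on which the change of a gene with low values comes out too small. They come from limma with Benjamini-Hochberg adjustment over the 12149 HSC genes and the 9232 BMDM genes whose mean over the 4 libraries reached 1 FPKM. The FPKM tables hold no counts. From the steps between low values the libraries were estimated to hold 27500000 to 39500000 fragments, so that 1 FPKM on a transcript of 1 kb stood for 27.5 to 39.5 fragments. The HSC libraries also carried macrophage, Kupffer cell and endothelial transcripts. The 10 macrophage markers summed to 7973 and 8118 FPKM in the control libraries and to 7777 and 7821 FPKM with auranofin, above the sum of the 12 stellate cell markers, which was 2558 and 2684 FPKM in the controls and 2194 and 2272 FPKM with auranofin. Lyz2 alone had 5519 and 5554 FPKM in the controls and 5379 and 5440 FPKM with auranofin. The macrophage sum therefore rested largely on this gene, and the sums do not give shares of cells. The 5 Kupffer cell markers summed to 2201 to 2447 FPKM in the 4 libraries, the 8 endothelial markers to 219 to 243 FPKM and the 4 cholangiocyte markers to 10.3 to 12.8 FPKM. The hepatocyte markers summed to no more than 1.57 FPKM in any HSC library, and 3 of the 7 were not listed. A level in these cultures therefore cannot be assigned to HSCs alone, and fewer cells of a type and less RNA per cell cannot be told apart.

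Promoters from 250 bases before to 50 bases after the transcription start were taken from RefSeq on GRCm38.p6, the assembly of the mm10 build to which the reads had been aligned, and entries were matched for 5 of the 9 genes. The window of Tgfbr2, a receptor whose level differed between the BMDM libraries, is not printed. The 3 printed here belong to the ligand with the highest level in both cell types and to a receptor and a SMAD whose levels also differed between those libraries. They are written 5′ to 3′ on the strand of the gene, and capitals mark the GC box GGGCGG, read on either strand.
Tgfb1, chr7:25686752-25687051, plus strand: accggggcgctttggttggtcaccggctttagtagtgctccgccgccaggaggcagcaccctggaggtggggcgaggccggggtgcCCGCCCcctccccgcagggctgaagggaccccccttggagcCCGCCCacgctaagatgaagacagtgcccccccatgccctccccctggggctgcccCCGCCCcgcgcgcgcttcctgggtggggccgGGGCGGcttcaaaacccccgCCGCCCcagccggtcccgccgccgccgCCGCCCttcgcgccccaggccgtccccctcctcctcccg
Tgfbr1, chr4:47352972-47353271, plus strand: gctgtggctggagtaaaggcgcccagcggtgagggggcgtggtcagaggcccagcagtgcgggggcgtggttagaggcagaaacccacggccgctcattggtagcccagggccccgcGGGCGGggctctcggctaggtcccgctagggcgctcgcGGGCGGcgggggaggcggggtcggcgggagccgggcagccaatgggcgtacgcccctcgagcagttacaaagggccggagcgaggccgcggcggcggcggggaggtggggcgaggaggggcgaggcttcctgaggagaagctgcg
Smad3, chr9:63757945-63758244, minus strand: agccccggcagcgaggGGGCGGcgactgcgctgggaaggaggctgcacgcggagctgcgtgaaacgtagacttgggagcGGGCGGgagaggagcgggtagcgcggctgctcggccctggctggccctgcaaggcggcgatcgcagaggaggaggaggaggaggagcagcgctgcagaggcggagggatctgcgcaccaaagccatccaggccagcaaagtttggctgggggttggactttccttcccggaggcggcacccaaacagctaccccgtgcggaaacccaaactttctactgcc
The Tgfb1 promoter held 6 GC boxes on 77.0% G and C, the Tgfbr1 promoter 2 on 74.7% and the Smad3 promoter 2 on 67.7%. These are G and C contents at percentiles 97.6, 95.8 and 86.8 of 32851 mouse promoters, whose median was 52.7%, and 35.7% of those promoters held a GC box. The other windows, of Tgfb2, Tgfbr2 and a second start of Tgfbr1, held none. Of the other motifs searched on both strands, the SMAD palindrome GTCTAGAC (0.213% of all promoters), the AP-1 site TGACTCA (5.20%) and the heat shock pair GAANNTTC (7.86%) were in none of the members' windows. The core of the antioxidant response element, TGACNNNGC (12.4% of all promoters), had 1 match each in the first Tgfbr1 window and in that of Tgfbr2, and the TATA box TATAAA (13.6%) had 1 in that of Tgfb2. These matches describe letters only and say nothing of binding. RefSeq places long noncoding RNA genes over parts of Tgfb2, Tgfbr1, Tgfbr2, Smad3 and Smad7, and a pseudogene within Tgfbr3. The kit was stranded, but whether strand was used in quantification is not given in the sources used here, so reads of such partners cannot be told apart from those of the members.

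In control HSCs all 9 genes were measured well above the limit for testing, and Tgfb1 had the highest level of them. The order ran from Tgfb1 (75.9 FPKM) over Tgfbr2 (52.3), Tgfb3 (42.9), Tgfbr1 (21.7), Smad3 (17.1), Skil (10.9), Tgfb2 (9.53) and Smad7 (8.50) to Tgfbr3 (7.50), all means of 2 libraries. The control libraries of neighbouring genes did not overlap at any step of this order. With auranofin the order was the same apart from Smad7 and Tgfb2, which changed places and overlapped.

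**Figure D1:**
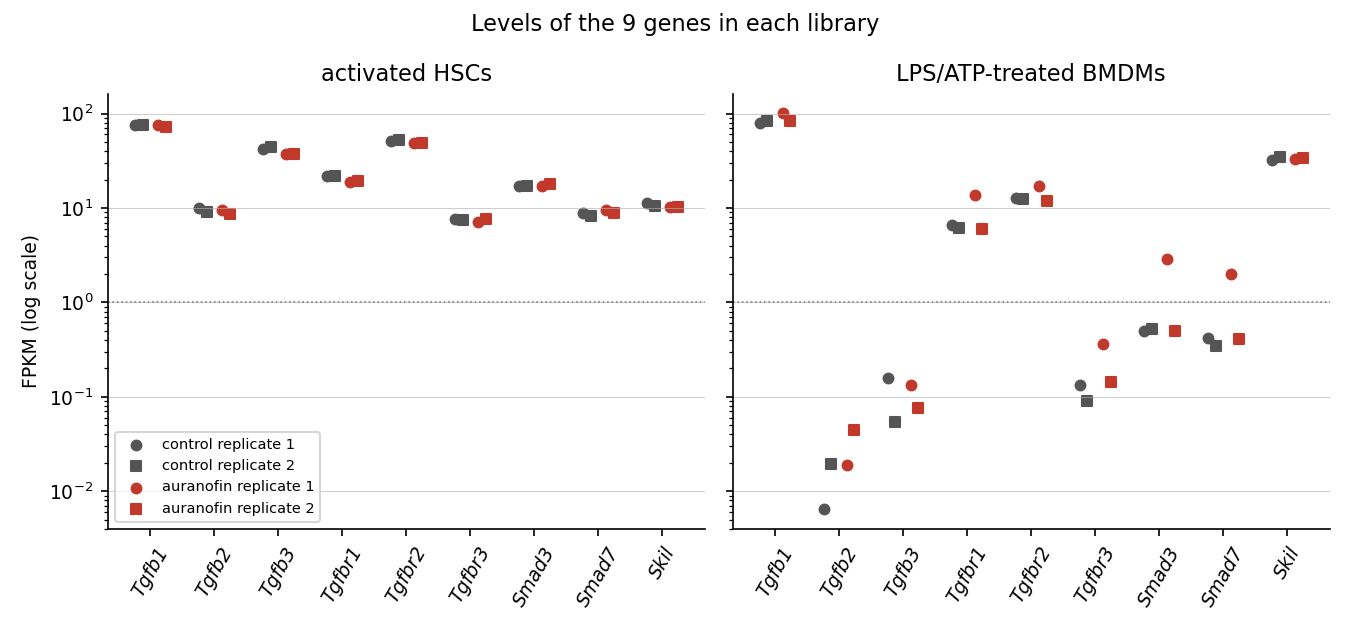
Level of each of the 9 genes in FPKM (log axis) in every library, with HSCs on the left and LPS/ATP-treated BMDMs on the right. Grey marks are control and red marks auranofin libraries, circles are replicate 1 and squares replicate 2, and the dotted line is 1 FPKM. In HSCs all 9 genes lie between 7.01 and 76.1 FPKM, and in BMDMs 5 of them lie under 1 FPKM in the controls.

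Among the ligands, Tgfb1, on chr7:25687002-25705077 of mm10, was the one best described in fibrosis. Its level in HSCs was 75.7 and 76.1 FPKM in the control libraries and 75.7 and 72.8 FPKM with auranofin, and the groups overlapped. The log2 fold change was -0.03 (SE 0.04, 95% interval -0.12 to 0.06, adjusted p = 0.700 by limma with Benjamini-Hochberg correction). Tgfb2, on chr1:186622787-186709697, the ligand that depends most on betaglycan, was low in comparison, with 10.04 and 9.02 FPKM in the controls and 9.40 and 8.63 FPKM with auranofin, and its log2 fold change was -0.07 (SE 0.07). Tgfb3, on chr12:86056743-86079041, was lower in both auranofin libraries (36.9 and 37.6 FPKM) than in both controls (42.0 and 43.9 FPKM). Its log2 fold change of -0.20 (SE 0.04, 95% interval -0.30 to -0.10) had an unadjusted p of 0.00256 in limma but did not pass after Benjamini-Hochberg adjustment (adjusted p = 0.0693). Without control replicate 1 it was -0.23, with an adjusted p of 0.0439 in limma.

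As shares of the summed FPKM of the 3 ligands, Tgfb1 made up 59.3% and 59.0% in the control HSC libraries and 62.0% and 61.2% with auranofin. Tgfb3 made up 32.9% and 34.0% in the controls and 30.2% and 31.6% with auranofin. For both ligands the groups did not overlap. The shares within a library depend on each other, so these are not separate results, and the level of Tgfb1 itself overlapped between the groups. The shares are a description without a test. Tgfb2 stayed between 6.99% and 7.86% in the 4 libraries. The share of Tgfb1 in the BMDM libraries was 99.8% to 99.9%.

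**Figure D2:**
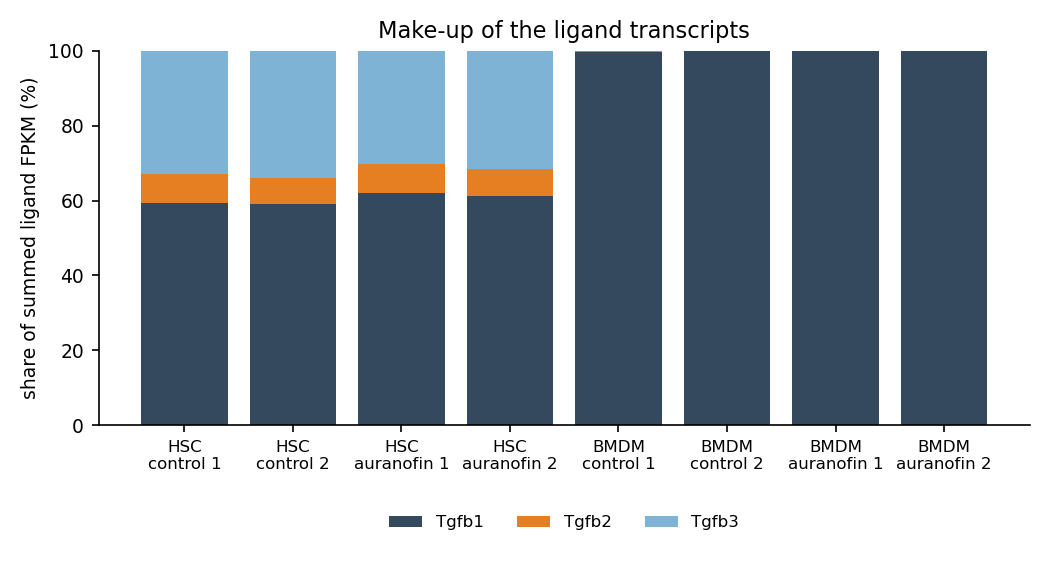
Share of each ligand in the summed FPKM of Tgfb1, Tgfb2 and Tgfb3 (percent, from 0 to 100) in each of the 8 libraries. In HSCs Tgfb3 takes 30.2% to 34.0% of the ligand transcripts, and in BMDMs nearly all of the bar is Tgfb1.

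Of the receptors, Tgfbr1 (chr4:47353222-47414926), the type I kinase, lay lower in both auranofin libraries of HSCs. It had 21.8 and 21.7 FPKM in the controls and 18.9 and 19.1 FPKM in the auranofin libraries, which is a gap wider than the spread within either group. Its log2 fold change was -0.18 (SE 0.04, 95% interval -0.28 to -0.09), with an unadjusted p of 0.00317 and one of 0.0776 after Benjamini-Hochberg adjustment in limma, so it did not pass. Tgfbr2 (chr9:116087695-116175363), the ligand-binding type II receptor, had 51.7 and 52.9 FPKM in the controls and 49.3 and 49.2 FPKM with auranofin. The groups of Tgfbr2 did not overlap either, but its log2 fold change was only -0.08 (SE 0.03, adjusted p = 0.282 from limma). The ratio of Tgfbr2 to Tgfbr1 levels was 2.37 and 2.44 in the controls and 2.60 and 2.57 with auranofin. Betaglycan, Tgfbr3 (chr5:107106567-107289629), had 7.61 and 7.40 FPKM in the controls and 7.01 and 7.63 FPKM with auranofin, and the auranofin libraries lay on both sides of the controls.

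None of the intracellular members passed the test. Smad3 (chr9:63646766-63757994) had 17.0 and 17.2 FPKM in the control HSC libraries and 17.2 and 17.8 FPKM with auranofin, for a log2 fold change of 0.03 (SE 0.04, 95% interval -0.07 to 0.13). Smad7 (chr18:75367365-75395935), the inhibitory SMAD, had 8.80 and 8.19 FPKM in the controls and 9.42 and 8.77 FPKM with auranofin, for a log2 fold change of 0.09 (SE 0.06, adjusted p = 0.492 by limma with Benjamini-Hochberg correction). Skil (chr3:31095058-31122923) had 11.3 and 10.5 FPKM in the controls and 10.2 and 10.3 FPKM with auranofin, just below both controls, for a log2 fold change of -0.08 (SE 0.05, adjusted p = 0.459 from limma). The 95% intervals of Smad7 (-0.06 to 0.23) and Skil (-0.21 to 0.04) give the uncertainty of the mean difference on this scale. They rest only on the spread between these libraries and are no firm bound.

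None of the 9 genes passed an adjusted p of 0.05 in HSCs by limma, where 2.33% of all genes tested did (1.09% of all genes as lower calls). None passed the other rule, at least 1.5-fold with an unadjusted p under 0.05, either, which is the threshold printed in the figures of the study and was met by 0.576% of genes. An unadjusted p under 0.05 was reached by 2 of the 9, Tgfb3 and Tgfbr1, both lower, while 17.8% of all genes reached it and 9.22% reached it as lower. In 4 of the 9 genes, namely Tgfb3, Tgfbr1, Tgfbr2 and Skil, both auranofin libraries lay below both controls, against 23.9% of all genes, and in 0 they lay above, against 26.2%. In all, 7 of the 9 log2 fold changes were negative, with a median of -0.07. Over all genes 47.8% were negative and the median was 0.00. The genes share the same 4 libraries and are not independent of each other. The stellate cell markers moved beside these values, with 8 of the 11 tested lower a median log2 fold change of -0.13 and 1 call, that of Acta2 (smooth muscle actin, log2 fold change -0.38, adjusted p = 0.00719 in limma), and the macrophage markers with 9 of 10 lower and a median of -0.05. Of the Kupffer cell markers 3 of 4 tested were higher (1 called), and of the endothelial markers 5 of 8 were higher, while 2 were called as lower. Both tested cholangiocyte markers were lower, with a median of -0.26 and unadjusted p under 0.05. Their part in the lower values of Tgfb3 and Tgfbr1 was not tested.

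**Figure D3:**
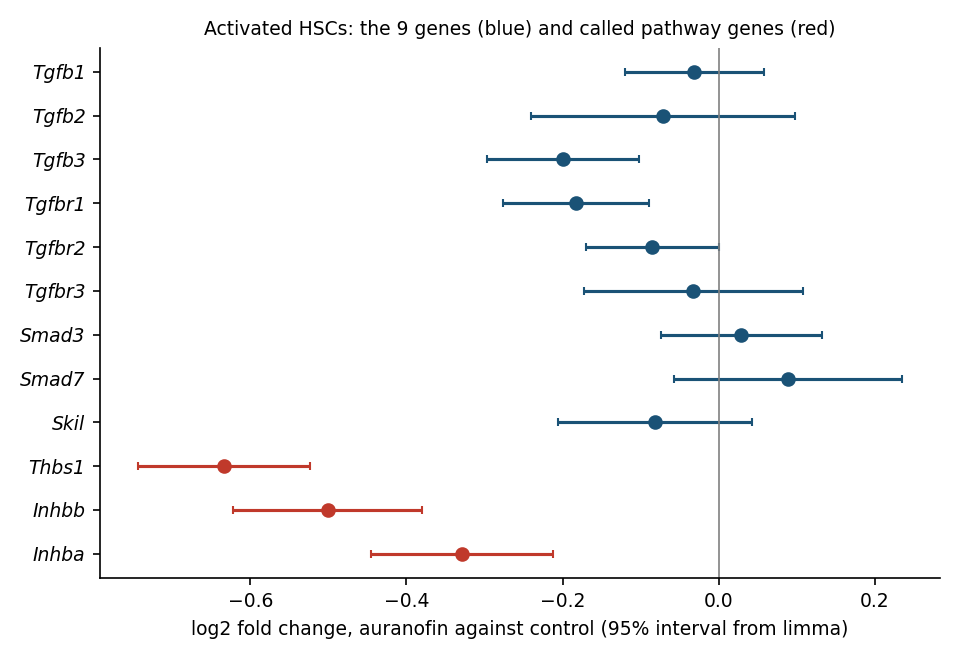
Log2 fold change of auranofin against control in HSCs, on the log2(FPKM + 1) scale, for the 9 genes (blue) and for the 3 other pathway genes with an adjusted p under 0.05 (red), with 95% intervals from limma as bars. The intervals of Tgfb3 and Tgfbr1 lie below 0, although neither passes the adjustment, and the 3 red genes lie between -0.63 and -0.33.

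The pathway around these genes was described with lists of 65 distinct genes, the 9 included, of which 61 were tested in HSCs. In HSCs 3 of the 61 passed an adjusted p of 0.05, all lower with auranofin, against 1.09% of all genes called lower. Thbs1, thrombospondin 1, an activator of latent TGF-beta, fell from 307 and 290 FPKM in the controls to 197 and 187 FPKM (log2 fold change -0.63, SE 0.04, adjusted p = 0.00445 by limma with Benjamini-Hochberg correction). It was also the only pathway gene past the rule of 1.5-fold with an unadjusted p under 0.05. Inhbb and Inhba encode the beta chains of activins, ligands that signal through Smad2 and Smad3 from receptors of their own. Inhbb fell from 10.6 and 10.9 FPKM to 7.51 and 7.14 FPKM (log2 fold change -0.50, adjusted p = 0.0113 from limma). Inhba fell from 17.0 and 16.2 FPKM to 13.3 and 12.8 FPKM (log2 fold change -0.33, adjusted p = 0.0337 from limma). Inhba lost its call without either auranofin library (adjusted p = 0.0693 and 0.0856 in limma) and with eBayes without the trend (0.0729). With no filter on low values neither Inhbb (0.0608) nor Inhba (0.108) passed. The number of pathway genes called rose with any single library left out, and not all of these calls were lower. Over all genes the number called rose without a control library and fell without an auranofin library.

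By role, the counts of the lists in HSCs were as follows. Of 10 genes for the ligands and their latency proteins, 8 were lower and 2 higher, none passed the adjusted test, and the highest level was that of Lrrc32 (98.7 and 93.9 FPKM in the controls, 92.0 and 88.8 FPKM with auranofin), the surface anchor of latent TGF-beta. Of the 4 activators of latent ligand 2 were tested, both lower with a median of -0.38, and the call was that of Thbs1. Of the 6 receptors and coreceptors 4 were lower, and Eng (endoglin), the highest among them, had 182 and 173 FPKM in the controls and 170 and 162 FPKM with auranofin. The 4 SMADs and their anchor had a median of 0.03, with Smad4, the shared partner of the receptor SMADs, at 21.98 and 21.4 FPKM in the controls and 22.7 and 21.6 FPKM with auranofin. Of 11 inhibitors and corepressors 7 were higher and 4 lower, with a median of 0.05, and Dcn (decorin), a matrix proteoglycan that binds TGF-beta, had 347 and 352 FPKM in the controls and 324 and 340 FPKM with auranofin.

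Among 17 target genes 11 were lower and 6 higher, with a median of -0.05, and 0 passed in limma, while 8 had an unadjusted p under 0.05, 6 of them lower, beside 17.8% and 9.22% of all genes. Fn1 (fibronectin) had the highest level of that list, with 919 and 1050 FPKM in the controls and 855 and 964 FPKM with auranofin, and its groups overlapped. Of the 12 activins, BMPs, GDFs and their antagonists that were tested, 10 were lower, with a median of -0.11 and 2 calls, Inhbb and Inhba. Bmp1, a protease that processes procollagen, was the highest of them, at 80.7 and 80.3 FPKM in the controls and 76.6 and 79.8 FPKM with auranofin. In the pathway lists together 39 genes were lower and 22 higher, with a median of -0.04, and 15 had an unadjusted p under 0.05 as lower and 3 as higher, where 17.8% of all genes had one and 9.22% as lower.

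The largest positive values in the lists, those of Nrros and Bmp4, rested on auranofin replicate 2. Its neutrophil markers summed to 74.3 FPKM, against 6.24 FPKM in auranofin replicate 1 and 17.6 and 6.73 FPKM in the controls. Nrros, an anchor of latent TGF-beta in myeloid cells, had 13.5 and 13.0 FPKM in the controls, 14.1 FPKM in auranofin replicate 1 and 30.2 FPKM in replicate 2. Bmp4 had 7.74 and 5.66 FPKM in the controls, 7.10 FPKM in auranofin replicate 1 and 16.5 FPKM in replicate 2. Neither passed the test, and these 2 genes were named after their values were seen. Whether cells other than HSCs had a part in this was not tested. None of the 9 genes showed a gap of this kind between the auranofin libraries.

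**Figure D4:**
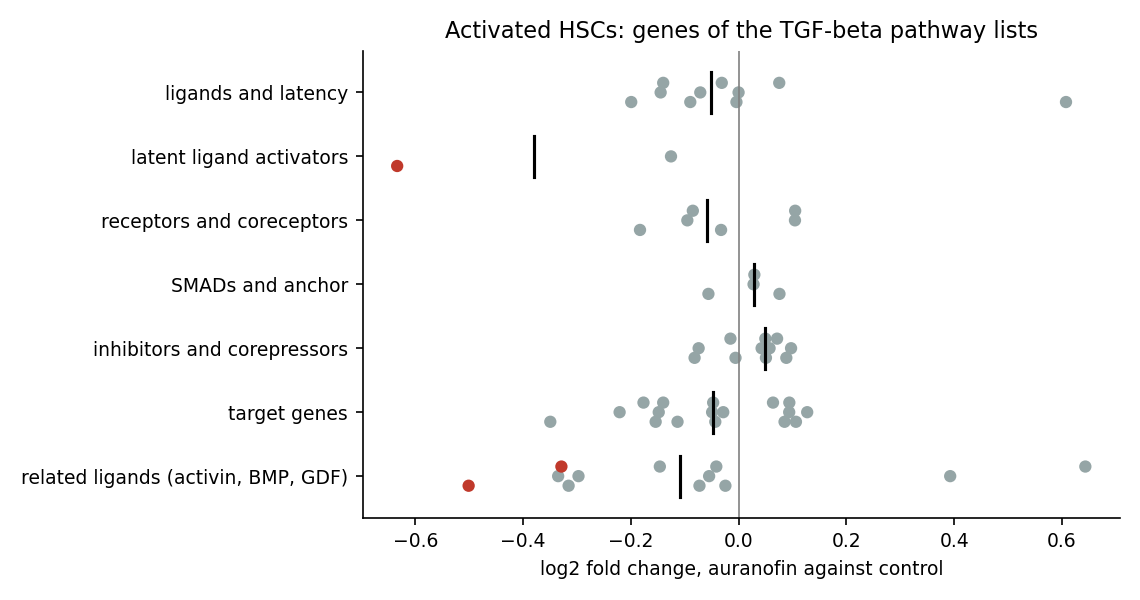
Log2 fold change of auranofin against control in HSCs for the tested genes of each pathway list, with 1 point per gene, red where the adjusted p is under 0.05, and a black line at the median of the list. The medians lie between -0.38 and 0.05. The points near 0.6 are Nrros and Bmp4, which were high in auranofin replicate 2 only.

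In the BMDM controls the same genes had another make-up, with Tgfb1 and Skil high and most of the rest low. The order of the control means was Tgfb1 (81.8 FPKM), Skil (33.7), Tgfbr2 (12.6), Tgfbr1 (6.34), Smad3 (0.510), Smad7 (0.384), Tgfbr3 (0.112), Tgfb3 (0.106) and Tgfb2 (0.0129), and only Tgfbr3 and Tgfb3 overlapped among neighbours. The control mean of Tgfb1 in HSCs was 0.928 times that in BMDMs, while Tgfbr1 was 3.43 times, Tgfbr2 4.15 times, Smad7 22.1 times, Smad3 33.6 times and Tgfbr3 67.2 times as high in HSCs. Skil went the other way, at 3.09 times the HSC level in BMDMs. The HSC libraries also carried macrophage transcripts. The macrophage markers summed to 7973 and 8118 FPKM in the HSC controls, beside 9521 and 9350 FPKM in the BMDM controls. Of these sums, Lyz2 alone held 5519 and 5554 FPKM in the HSC controls and 3743 and 3625 FPKM in the BMDM controls. The tables were normalized separately and differ in treatment and exposure, so these ratios are given without a test.

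The members at low levels in BMDMs rested on few fragments. Tgfb2 was estimated at 1 and 3 fragments in the controls and 3 and 8 with auranofin, and Tgfb3 at 16 and 5 in the controls and 16 and 9 with auranofin. For 8 fragments an exact 95% Poisson interval, which covers counting error only, runs from 3.45 to 15.8 fragments. Only a large difference in Tgfb2 could therefore have been seen at this depth. Stellate cell markers were near 0 in these libraries, summing to 3.36 to 5.64 FPKM, beside 9350 to 10125 FPKM for the macrophage markers.

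The 2 auranofin libraries of BMDMs did not resemble each other. Hmox1, a heme-degrading stress enzyme and the gene used here to see which libraries responded, had 82.7 and 86.7 FPKM in the controls, 4403 FPKM in the first auranofin library (replicate 1) and 85.3 FPKM in the other (replicate 2). In HSCs it had 391 and 368 FPKM in the controls and 1297 and 1141 FPKM with auranofin. Auranofin replicate 1 differed from the control mean by at least 1.5-fold in 15.2% of BMDM genes as higher and in 8.07% as lower, on the log2(FPKM + 1) scale. For replicate 2 these shares were 0.379% and 0.282%. The values below are therefore given for each library, and all group means mix libraries that stand apart.

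Tgfbr1 in BMDMs had 6.59 and 6.10 FPKM in the controls, 13.7 FPKM in auranofin replicate 1 and 5.96 FPKM in replicate 2. One auranofin library was thus above and the other below both controls. Smad3 had 0.503 and 0.516 FPKM in the controls, 2.88 FPKM in auranofin replicate 1 and 0.497 FPKM in replicate 2, or an estimated 76, 72, 512 and 87 fragments. Its mean reached the limit of 1 FPKM only through replicate 1. Smad7 stayed under that limit, so it was not tested, with 0.419 and 0.349 FPKM in the controls, 1.98 FPKM in auranofin replicate 1 and 0.407 FPKM in replicate 2, or an estimated 53, 41, 296 and 60 fragments. The 95% Poisson interval of Smad7 in replicate 1 was 263 to 332 fragments, and that of the higher control was 39.7 to 69.3 fragments.

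Tgfbr3, the betaglycan coreceptor, was at a lower level, with 0.134 and 0.0895 FPKM in the controls and 0.358 and 0.145 FPKM with auranofin, which correspond to 24, 15, 76 and 30 fragments. Both auranofin libraries lay above both controls in this gene, and replicate 2 by few fragments. The Poisson interval of replicate 2 was 20.2 to 42.8 fragments and overlapped that of the higher control, 15.4 to 35.7 fragments. Both auranofin libraries also lay above both controls in 2425 of the 9232 genes tested in BMDMs, which do not include Tgfbr3. Tgfbr2 had 12.7 and 12.5 FPKM in the controls, 16.9 FPKM in auranofin replicate 1 and 11.9 FPKM in replicate 2. Tgfb1 had 79.9 and 83.8 FPKM in the controls, 100.5 FPKM in auranofin replicate 1 and 83.6 FPKM in replicate 2. For both genes replicate 1 was the highest of the 4 libraries. Skil, at 32.5 and 34.9 FPKM in the controls and 32.6 and 33.6 FPKM with auranofin, lay within the range of the controls in both auranofin libraries. The ratio of Tgfbr2 to Tgfbr1 levels was 1.93 and 2.04 in the controls, 1.23 in auranofin replicate 1 and 1.995 in replicate 2.

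With both auranofin libraries in the fit, 5 of the 9 genes were tested and 0 passed an adjusted p of 0.05 in limma with Benjamini-Hochberg adjustment, where 0.0108% of all genes passed. The number with an unadjusted p under 0.05 was also 0, against 0.531% of all genes, and 0 passed the rule of 1.5-fold with an unadjusted p under 0.05, against 0.152%. The log2 fold changes were 0.67 (SE 0.50) for Smad3, 0.46 (SE 0.40) for Tgfbr1, 0.16 (SE 0.14) for Tgfb1, 0.16 (SE 0.20) for Tgfbr2 and -0.02 (SE 0.11) for Skil. Their errors are wide, as the auranofin libraries differ, and the adjusted p-values in limma ran from 0.721 to 0.920.

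When auranofin replicate 1 alone was set against the controls, with the lone library assumed to vary as the controls do, 4 of the 5 genes passed an adjusted p of 0.05 in limma, where 65.2% of all genes did. One of the 4, Smad3, entered the test only through this library, so after the filter on low values it had to differ and its call is no support. The log2 differences were 1.36 (SE 0.10) for Smad3, 1.00 (SE 0.07) for Tgfbr1, 0.40 (SE 0.06) for Tgfbr2 and 0.29 (SE 0.05) for Tgfb1, and that of Skil, -0.04, did not pass. The median of all genes in this library was itself 0.18 above the control mean. Relative to that median the differences were 1.18 for Smad3, 0.83 for Tgfbr1, 0.22 for Tgfbr2, 0.12 for Tgfb1 and -0.22 for Skil. When auranofin replicate 2 alone was set against the controls, 4 of the genes were tested and 0 passed, where 0.166% of all genes did, and the differences ran from -0.08 for Tgfbr1 and Tgfbr2 to 0.03 for Tgfb1. Both comparisons use the same 2 control libraries. Only 1 library showed these differences, and why the auranofin libraries differ was not tested.

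Of the 65 pathway genes 36 were tested in BMDMs, and 0 passed an adjusted p of 0.05 or had an unadjusted p under 0.05 in limma with both auranofin libraries in the fit. In auranofin replicate 1, 14 of the 36 were at least 1.5-fold above the control mean and 4 at least 1.5-fold below it. The shares of all genes given above were 15.2% and 8.07%. In replicate 2 the numbers were 0 and 2 of the 36, against 0.379% and 0.282% of all genes. Of the 14, Smad3 and Bambi had control means under 1 FPKM and were tested only through replicate 1, so they had to count as higher. Among genes with a control mean of at least 1 FPKM, a limit set after the values were seen, 12 of 34 pathway genes were higher in replicate 1, beside 14.1% of all genes, and 4 were lower, beside 8.29%. The following genes were named after their values were seen. Cdkn2b, which encodes the cell cycle inhibitor p15 and is a target of the pathway, had 1.93 and 1.83 FPKM in the controls, 17.7 FPKM in auranofin replicate 1 and 1.96 FPKM in replicate 2. Klf10, an early TGF-beta response gene, had 1.44 and 1.32 FPKM in the controls, 10.5 FPKM in replicate 1 and 1.15 FPKM in replicate 2. Bambi, a decoy receptor without a kinase, had 0.392 and 0.394 FPKM in the controls, 6.31 FPKM in replicate 1 and 0.408 FPKM in replicate 2. Id3, a target of BMP signalling that TGF-beta can also repress, had 2.20 and 2.08 FPKM in the controls, 11.2 FPKM in replicate 1 and 2.86 FPKM in replicate 2. In each of these 4 genes replicate 1 was far above the other 3 libraries. The target list as a whole was mixed. Of its 11 tested genes 8 were higher and 3 lower with both auranofin libraries in the fit, where 33.9% of all genes were lower. In replicate 1 the other log2 differences were -0.33 for Junb, -0.18 for Lox, -0.15 for Fn1, 0.10 for Tgfbi and 0.11 for Cdkn1a. They were 0.38 for Id1, 0.44 for Id2 and 0.59 for Sphk1.

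Other pathway genes were lower in that library. Itgb8, a subunit of an integrin that frees TGF-beta from its latent complex, had 9.05 and 10.1 FPKM in the controls, 1.82 FPKM in auranofin replicate 1 and 7.62 FPKM in replicate 2. Nrros had 34.8 and 18.5 FPKM in the controls, 6.48 FPKM in replicate 1 and 16.2 FPKM in replicate 2. Gdf15, a stress-induced ligand of the wider family, moved in opposite directions, with 67.5 and 66.5 FPKM in the controls, 371 FPKM in replicate 1 and 20.1 FPKM in replicate 2. It was the only pathway gene to pass an adjusted p of 0.05 in limma when replicate 2 alone was set against the controls (adjusted p = 0.00136).

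**Figure D5:**
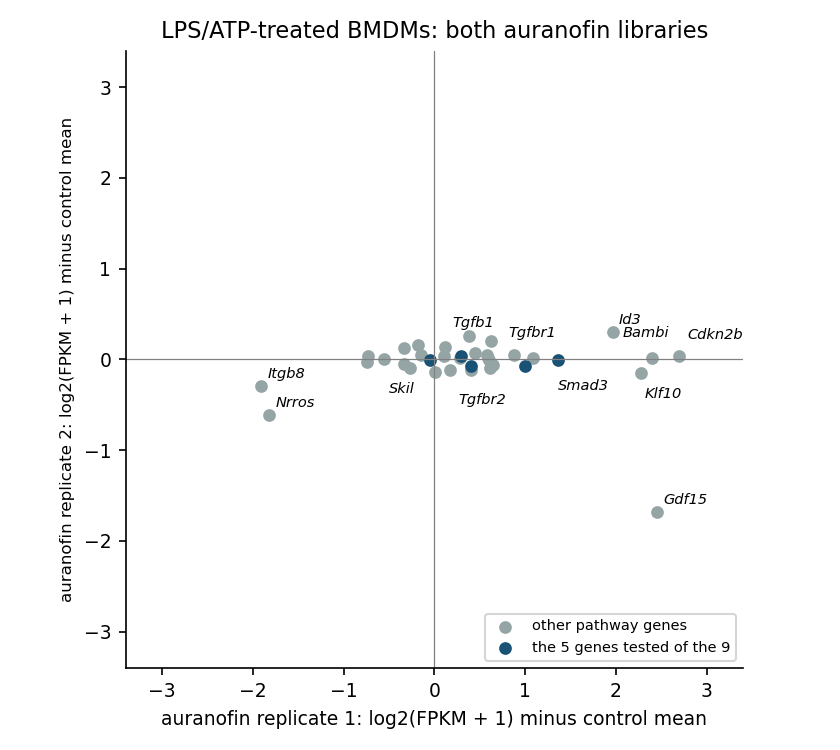
Difference from the control mean of log2(FPKM + 1) in BMDMs, auranofin replicate 1 on the horizontal and auranofin replicate 2 on the vertical axis, for the 36 tested pathway genes, with the 5 tested genes of the 9 in blue. The points spread along the horizontal axis from -1.91 to 2.69 and lie near 0 on the vertical axis, apart from Gdf15 and Nrros.

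Of the lists, the highest control levels in BMDMs were those of Tgfb1 among the ligands, Itgav (53.8 and 50.4 FPKM) among the activators, Eng (54.6 and 57.5 FPKM) among the receptors, Smad4 (12.6 and 12.7 FPKM) among the SMADs, Tgif1 (42.6 and 40.8 FPKM) among the corepressors, Cdkn1a (946 and 1026 FPKM) among the targets and Gdf15 among the related ligands. In auranofin replicate 1 Smad4 stood at 20.4 FPKM and Tgif1, a SMAD corepressor, at 89.5 FPKM, while replicate 2 held 12.04 and 41.98 FPKM. Eng was lower in replicate 1, at 33.3 FPKM, and Cdkn1a differed little from the controls in both auranofin libraries (1066 and 1081 FPKM).

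Genes with a pattern near that of a member were sought by the Euclidean distance of log2(FPKM + 1), centred within each table, over the 8 libraries and among 8963 genes. Nearest to Tgfb1 were Smurf1 (distance 0.0276), Zfp444 (0.0446) and Arhgap23 (0.0459), where the median distance of all genes was 0.309. Smurf1, which encodes a ubiquitin ligase of the same pathway, had 11.4 and 11.9 FPKM in the BMDM controls, 14.4 FPKM in auranofin replicate 1 and 11.8 FPKM in replicate 2. Nearest to Smad7 were Vapa (0.0693), Tgif1 (0.0700) and Fam98c (0.0759), against a median of 0.832, and each of the 3 was highest in auranofin replicate 1 of BMDMs. Smad7 itself was highest in that library, so the search favours such genes. The same limit holds for Tgfb1, which was also highest there among the BMDM libraries, as were its 3 nearest genes. As Smad7 was under the limit for testing in BMDMs, it was added for its own search only. In auranofin replicate 1 of BMDMs the FPKM of Smad7 was 5.15 times its control mean, and that of Tgif1 2.15 times. The log2(FPKM + 1) scale shrinks changes at low values, so a small distance from Smad7 does not mean an equal fold change. Nearest to Skil were Stau2 (0.0387), Sfxn2 (0.0509) and Tmco4 (0.0585), against a median of 0.365. The distance is a description over libraries that share their depth and their processing.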

How the data were processed

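The authors aligned RNA sequencing reads to mm10 and deposited 1 table of FPKM values per cell type, with 18645 genes for HSCs and 17408 for BMDMs. Per the submitters' processing notes the tools included CASAVA, FastQC 0.11.7, Trimmomatic 0.38, HISAT2 2.1.0 and StringTie 1.3.4d. Each value is the number of fragments scaled to transcript length and library size by the authors, and the tables give no counts. The FPKM values of a library summed to 430372 to 485467.

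Each table was analysed alone. On the log2(FPKM + 1) scale, and after genes whose 4 libraries averaged under 1 FPKM had been left out (12149 and 9232 genes remained), auranofin was compared with control in limma 3.58.1 (lmFit, then eBayes with a trend) under R 4.3.3. A gene was called at a Benjamini-Hochberg adjusted p under 0.05 over all genes tested, and the rule of at least 1.5-fold with an unadjusted p under 0.05 was given beside it. The fit was tested on simulated data with independent noise for each gene. No simulated library stood apart as BMDM auranofin replicate 1 does, so that case was not covered. Depth was estimated from genes with 1 transcript and values under 0.2 FPKM, of which 39.0% to 46.4% came out as whole fragments within 0.05. By chance 10% would at a depth fixed beforehand. The depth taken was the one with the largest such share among those tried, so the 2 figures are not directly comparable. The fragment numbers of genes with several transcripts assume the longest one.

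The 9 genes and the lists of pathway and marker genes were chosen with earlier results of these data known, so no list is independent support for a pattern. An item of the pathway lists is not reported here and enters none of their counts. Beside the 9, the pathway genes named were those called, then those past the 1.5-fold rule, then the highest control level of each list. The nearest patterns were sought for Tgfb1, Smad7 and Skil, and the text says where a name was picked with its values known. Alternatives, tried separately, dropped the filter on low values or raised it to a mean of 5 FPKM, set the pseudocount to 0.1, used quantile normalization or median centring, fitted eBayes without the trend or with the replicate number as a block, and left out each library, where the lone library is assumed to vary as the other group does. Summaries used pandas 2.3.3, numpy 2.4.6 and scipy 1.17.1 under Python 3.11.15, and plots matplotlib 3.10.9.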

Additional observations from a re-analysis of the deposited data

How the results depend on the processing

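In HSCs, 125 of 132 alternative values kept their direction and their side of the threshold. None of the 9 genes passed in any of these settings except Tgfb3 without control replicate 1, so the number called was 0 to 1 with a library left out. The 3 called pathway genes became 1 with no filter on low values, 5 with a mean of at least 5 FPKM and 7, of which 1 was higher, with the replicate block. The number also rose with any library left out, and not all of those calls were lower. Of all HSC genes, 283 were called, 49 with no filter, 129 without the trend and 179 (without auranofin replicate 1) to 517 (without control replicate 1) with a library left out. The 70 past the 1.5-fold rule became 124 with a pseudocount of 0.1 and 107 to 139 with a library left out. The log2 fold change of Tgfbr3 ran from -0.0863 to 0.0211. With no filter the adjusted p in limma was 0.0608 for Inhbb and 0.108 for Inhba, and without the trend 0.0729 for Inhba.

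In BMDMs the results turn on auranofin replicate 1. With a library left out the called members numbered 0 to 4, the members past the 1.5-fold rule 0 to 2, the called pathway genes 0 to 29 and the called genes of all 1 to 6051, and the log2 fold change ran from -0.0764 to 1.00 for Tgfbr1, -0.0770 to 0.40 for Tgfbr2, -0.0737 to 0.0263 for Skil, -0.15 to 2.27 for Klf10 and -0.0646 to 0.65 for Smad4. The high ends for the counts, and for all but Skil, came without auranofin replicate 2. Of all BMDM genes 1 was called, 0 with no filter, 0 with quantile normalization and 2 without the trend, and the number with an unadjusted p under 0.05 was then 368, 70 and 57. The 14 genes past the 1.5-fold rule became 27 with a pseudocount of 0.1, 22 with no filter, 8 with a mean of at least 5 FPKM, 42 with the replicate block and 14 to 2146 with a library left out. Quantile normalization moved the median of all BMDM genes from 0.09 to 0.00, and neither it nor centring on the median turned the sign of any of the 5 tested members.

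Samples with the same number deviated from their group means with a correlation of 0.109 in HSCs and -0.0551 in BMDMs over 2 pairs, and no label says what a number shares, so the numbers were not taken as pairs. The cause of these differences between settings was not tested. Depth limits Tgfb2 and Tgfb3 in BMDMs, which rest on 1 to 16 fragments.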
